A study of Mus musculus with 11 samples.

Results

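The replication-dependent histone genes of the mouse, which encode the linker histone H1 and the core histones H2A, H2B, H3 and H4, were described in bone marrow derived macrophages of C57BL/6 origin. They were taken as all gene names of the count table that begin with Hist1h, Hist2h, Hist3h or Hist4h, and 1 name marked as a pseudogene was left out. That gave 69 of 42375 named genes, with 6 of type H1, 20 of H2A, 18 of H2B, 12 of H3 and 13 of H4. Hist1h2aj and Hist1h2al, counted under H2A, are typed as pseudogenes in the GENCODE M21 annotation but were kept, since their names carry no such mark. No measured value entered the choice.

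RNA was sequenced in 4 groups of cultures, all given a gapmer for 16 hours, that is, a chemically modified DNA strand whose pairing with an RNA recruits RNase H to cut it. M1 KD (2 libraries, numbered 5 and 6) are cells labelled M1 that got the gapmer aimed at MERRICAL, a long noncoding RNA, and M1 NS (3 libraries, numbered 1, 2 and 4) are M1 cells with the gapmer labelled NS. M0 KD and M0 NS (3 libraries each, numbered 1, 2 and 4) are the same pair in cells labelled M0. The stimulus behind M1, what NS pairs with and how the numbers were given are not stated in the sources used here. MERRICAL is not among the gene names, and whether the knockdown lowered it was therefore not analysed here.

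Replication-dependent histone genes supply the proteins that package new DNA, and most of their transcription takes place in S phase. Their messenger RNAs are the known exception among animal mRNAs in that they usually carry no poly(A) tail: they end just after a stem-loop that the stem-loop binding protein SLBP recognises and that the U7 small nuclear ribonucleoprotein helps to cut, and they decay when DNA synthesis stops. Some of these genes also have a poly(A) signal further downstream and can give polyadenylated mRNA, which is known from differentiated cells. The labels name total RNA as the material. Whether the libraries were then made from polyadenylated RNA or after removal of ribosomal RNA was not given in the sources used here.

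The sequences that tell these ends apart are shown for the genes on which the results turn, since they carry a stem-loop, a poly(A) signal or both. All were read from GENCODE M21 transcripts on GRCm38, 5′ to 3′ on the gene's strand, with the stem-loop (letters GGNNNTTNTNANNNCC) or the signal (AATAAA or ATTAAA within 50 bases of the annotated end) in capitals. The stem-loops of Hist1h1c (linker histone H1.2, chr13:23739507-23739532, plus strand), Hist3h2a (an H2A gene, chr11:58955167-58955192, plus), Hist1h4i (an H4 gene, chr13:22040961-22040986, minus), Hist1h2bg (an H2B gene, chr13:23571838-23571863, plus) and Hist2h3c2 (an H3 gene, chr3:96238480-96238505, minus) read as follows.
Hist1h1c: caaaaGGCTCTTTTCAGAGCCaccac
Hist3h2a: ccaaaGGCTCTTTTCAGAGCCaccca
Hist1h4i: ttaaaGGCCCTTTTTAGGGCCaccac
Hist1h2bg: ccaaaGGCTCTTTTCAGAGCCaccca
Hist2h3c2: acaaaGGCTCTTTTCAGAGCCaccac

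Further downstream the annotated transcripts of Hist1h1c (chr13:23740338-23740367), Hist3h2a (chr11:58956795-58956824), Hist1h4i (chr13:22040636-22040665) and the H2B gene Hist2h2be (chr3:96223709-96223738, plus strand, no stem-loop in its annotated transcript) hold a poly(A) signal.
Hist1h1c: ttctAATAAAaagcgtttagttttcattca
Hist3h2a: ccAATAAAataagagtacgtgtataacata
Hist1h4i: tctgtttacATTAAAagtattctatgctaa
Hist2h2be: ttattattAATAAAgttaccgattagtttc

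The stem-loop letters were found in 46 of the 69 genes, and 26 of these share the letters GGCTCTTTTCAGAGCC. The form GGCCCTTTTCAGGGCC occurred in 7 genes, and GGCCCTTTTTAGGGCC in 2, the H4 genes Hist1h4i and Hist2h4. Its first base lay 21 to 58 bases beyond the stop codon, with a median of 31. Of all members 14 held both features, 32 the stem-loop alone, 3 the poly(A) signal alone and 20 neither. A gene with neither often has an annotation that stops near the end of its coding sequence, so that the class describes the annotation and not the RNA. The genes lie on chromosome 13 (56 genes of the Hist1 cluster), chromosome 3 (10, Hist2), chromosome 11 (2, Hist3) and chromosome 6 (1, Hist4), and 64 of 69 have a single exon.

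In the window from 250 bases before to 50 after the RefSeq start, 63 promoters of 61 members could be read (GRCm38.p6). The CCAAT box, bound by the trimeric factor NF-Y, stood on either strand in 54 of the 63 (85.714%), against 37.408% of all 32851 promoters, and in 3 of 12 H4 promoters. The octamer ATTTGCAT, bound by OCT1, stood in 7 of 17 H2B and 7 of 18 H2A promoters and in none of the 6 H1, 10 H3 and 12 H4 promoters, against 1.735% of all promoters. TATAAA was present in 55.556% of member promoters and 13.616% of all, and the E2F-type letters TTTCCCGC in 1.587% and 1.068%. Short motifs match by chance too, and a match is a description of the letters, not a site. Hist1h2bg and the H2A gene Hist1h2ae are transcribed away from each other from windows that overlap, at chr13:23571150-23571449 (plus) and chr13:23571171-23571470 (minus). The Hist1h2bg window is shown because these neighbours are compared further on, with CCAAT, octamer and TATA letters of either strand in capitals.
Hist1h2bg promoter: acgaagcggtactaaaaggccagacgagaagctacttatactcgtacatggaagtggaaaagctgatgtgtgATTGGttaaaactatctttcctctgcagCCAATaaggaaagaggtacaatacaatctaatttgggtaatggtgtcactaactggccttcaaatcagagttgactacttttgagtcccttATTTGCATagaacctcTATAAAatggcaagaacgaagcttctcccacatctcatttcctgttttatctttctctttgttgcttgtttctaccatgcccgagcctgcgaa

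Total counts per library ran from 30040632 to 43250392. Macrophage markers were high in sum in every library, at 13220 to 26790 CPM over 8 genes, among them Csf1r and Cd68. CPM here is the count scaled to a common library size with TMM factors. Of the 8, Lyz2 had the most counts in every library. Between M1 NS and M0 NS 4 of the 8 rose and 3 fell in the test given further on, against 26.9% of all genes higher and 28.6% lower. Csf1r had 17816, 15411 and 35271 counts in M1 NS, against 172826, 155322 and 162057 in M0 NS. Nothing in the labels says that replicates came from separate cultures, so the spread behind the p-values is that of these libraries and may be technical. In RNA from whole cultures, fewer cells that make a histone mRNA and less of it per cell cannot be told apart. RNAs known to lack a poly(A) tail were sparse and uneven: the 7SK RNA gene Rn7sk had 159 and 156 counts in M1 KD, 1484, 154 and 153 in M1 NS, 354, 75 and 133 in M0 KD, and 281, 77 and 356 in M0 NS. M1 NS replicate 1 stood apart in this. Its histone genes together took 0.01418% of its counts, against 0.01444% and 0.01108% in M1 NS replicates 2 and 4. Its Hist3h2a level of 35.27 CPM was the highest of all libraries. The M1 KD calls of Hist2h2be and Hist3h2a given further on held without this library. Marker sets of other cells summed to 0.5734 to 5.64 CPM for B cells, 1.434 to 22.12 for T cells, 5.505 to 38.03 for erythroid cells, 4.987 to 27.5 for dendritic cells and 8.741 to 95.16 for fibroblasts and endothelium. Single genes carried some of these sums. In M1 KD replicate 6 Pecam1 had 2496 counts and Col1a1 19, and in M0 NS replicate 1 Cd4 had 866 and Cd3e 6. The sums therefore do not measure how many other cells were present.

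Histone genes took very little of the libraries. All 69 together held 61178 of 406725423 counts, which was 0.0101% to 0.0213% of the counts of a library. Of these counts 95.25% fell on 5 genes, each of which led its own type or came next to the leader. Hist1h1c had 25624 counts and made up 99.3% of those of H1. Hist1h2bc, an H2B gene, had 20510 and 84.0% of H2B, and Hist3h2a had 7883 and 92.9% of H2A. Hist2h2be followed with 2917 counts, or 11.9% of H2B, and Hist1h4i with 1339, or 68.5% of H4. No H3 gene came near these: Hist2h3c2 led H3 with 306 counts, 61.1% of that type. Per kilobase of annotated exon the mean levels were 44.9 CPM for Hist1h2bc, 38.5 for Hist1h1c, 9.11 for Hist3h2a, 4.65 for Hist1h4i and 2.60 for Hist2h2be.

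The counts differed between the classes of annotated end. Genes with a stem-loop and a poly(A) signal held 58.5% of all histone counts, with a median of 105.5 counts per gene over the 11 libraries, and 8 of the 14 passed the filter on low counts. Genes with the stem-loop alone held 2.60%, with a median of 25.5, and 4 of 32 passed. The 3 genes with the poly(A) signal alone held 4.77%, nearly all of it from Hist2h2be, and their median was 2. The class with neither held 34.1%, nearly all of it from Hist1h2bc, whose annotated transcript has 2 exons. Among the 46 genes with a stem-loop, the 23 whose annotation runs over 100 bases past it held 36726 counts with a median of 64, and the 23 with a shorter stretch held 644 counts with a median of 14. Longer annotations collect more reads, and the length was not separated from the kind of end in these counts. Members also share sequence: of the stretches of 50 bases in a gene, a median of 31.7% recurred in another annotated gene for the tested members, 58.0% for those below the filter and 100% for those at 0. The counts of such genes are uncertain, since the treatment of reads with several places in the genome was not given in the sources used here.

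**Figure D1:**
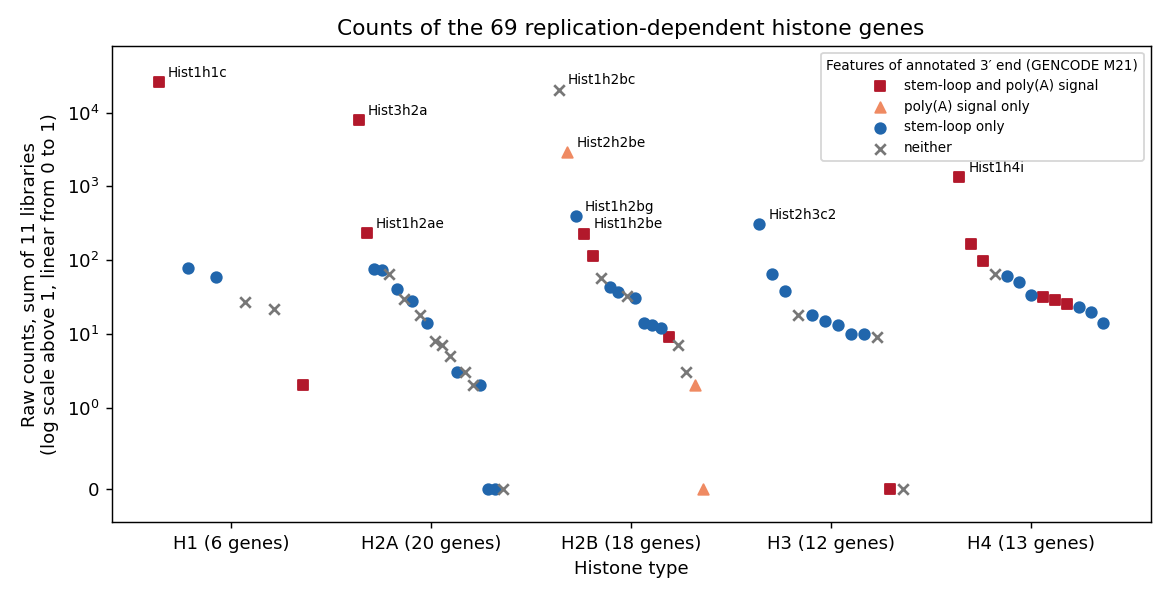
Raw counts of each of the 69 histone genes summed over the 11 libraries (y axis, logarithmic above 1), by histone type and sorted within it, with the marker showing what the annotated 3′ end holds. In each type 1 or 2 genes stand far above the rest, from 306 counts for Hist2h3c2 to 25624 for Hist1h1c.

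The other 64 genes were close to the limit of detection. They shared 2905 counts, and 6 of them had 0 counts in all libraries: Hist2h2aa1, Hist2h2aa2 and Hist1h2aa of H2A, Hist1h2bq of H2B, and Hist2h3b and Hist2h3c1 of H3. A count of 0 over all libraries allows a level of up to 0.00738 CPM (3 counts, counting error only). Of their stretches of 50 bases, 97.32% or more recur in other genes for 5 of the 6, whose reads may have been assigned elsewhere or set aside, and 23.8% for Hist1h2aa. Between 2 and 76 counts were seen for 47 more genes, with a median of 18, and these were below the filter. The remaining 16 entered the test, of 15024 genes in all. At the edge of the filter, Hist1h2ad (H2A) had 76 counts and was not tested, and Hist2h2bb (H2B) had 57 and was, owing to 27 in M1 KD replicate 5 and 18 in M0 KD replicate 2.

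M1 KD was compared with M1 NS to see what the gapmer against MERRICAL did in M1 cells. M1 KD alone has label numbers of its own, so a difference tied to them cannot be told apart from the gapmer's effect. Of the 16 tested histone genes 3 fell, the H2B gene Hist2h2be, the H2A gene Hist3h2a and the H4 gene Hist1h4i, and 1 rose, the H2B gene Hist1h2bg. The most abundant ones, Hist1h1c and Hist1h2bc, did not pass the test. Genes were tested with edgeR's quasi-likelihood test over all 11 libraries and a gene was called where the adjusted p (Benjamini-Hochberg) was below 0.05. By that rule 36.8% of all genes were called in this comparison, 17.6% higher and 19.2% lower. The 4 of 16 histone genes are thus no more than that background. Their median log2 fold change was -0.64, against 0.001025 over all genes, and it was -1.41 without M1 KD replicate 5 and -0.20 without M1 KD replicate 6. Upper-quartile factors put the median of all genes at 0.15 and their split at 3454 higher and 2177 lower, against 2645 and 2890 with TMM factors, while the histone calls were 1 higher and 3 lower under each of the 4 scalings.

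Hist2h2be encodes an H2B protein and has a poly(A) signal but no stem-loop in its annotated transcript. It had 38 and 33 counts in M1 KD, against 258, 151 and 253 in M1 NS. In CPM these were 1.04 and 1.21 in M1 KD, against 7.23, 5.98 and 7.25 in M1 NS. Both M1 KD libraries lay far below every other library of the study, whose lowest value was 5.98. The log2 fold change was -2.60 (SE 0.21, adjusted p = 7.61e-06, edgeR), and the call held under all 22 alternatives, at -2.71 to -2.45.

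Hist3h2a lies apart from the large clusters, on chromosome 11. It had 252 and 366 counts in M1 KD, against 1259, 722 and 831 in M1 NS. The levels were 6.92 and 13.4 CPM in M1 KD, against 35.3, 28.6 and 23.8 CPM in M1 NS, with no overlap but with replicate 5 well under replicate 6. The log2 fold change was -1.53 (SE 0.27, adjusted p = 0.00118, edgeR), and it kept its call under the same 22 alternatives, at -2.08 to -1.13. In GENCODE M21 the gene shares its start and strand with Trim17, whose annotated span covers it. Trim17 had 174 and 92 counts in M1 KD, against 46, 31 and 22 in M1 NS, the opposite direction. The assignment of reads in the shared stretch was not given in the sources used here, and its part in the Hist3h2a value was not tested.

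Hist1h4i, the main H4 gene here, had 79 and 74 counts in M1 KD, against 163, 163 and 148 in M1 NS. That was 2.17 and 2.71 CPM in M1 KD, against 4.57, 6.45 and 4.24 CPM in M1 NS. The groups did not overlap, and the log2 fold change was -1.06 (SE 0.28, adjusted p = 0.0122, edgeR). The call was lost under 3 of 22 alternatives: without M1 KD replicate 5, at -0.91 (adjusted p = 0.0966), with only the groups compared in the fit, at -1.03 (adjusted p = 0.0522), and at the stricter threshold of 0.01. Over these alternatives adjusted p ran from 0.0035 to 0.0966.

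Hist1h2bg was the member that rose. Its counts were 56 and 26 in M1 KD, against 26, 7 and 19 in M1 NS, and its levels 1.54 and 0.951 CPM in M1 KD, against 0.728, 0.277 and 0.545 CPM in M1 NS. Of its stretches of 50 bases 49.736% recur in other genes, with the abundant Hist1h2bc sharing the most. The part of shared reads in its value was not tested. The log2 fold change of 1.24 (SE 0.42, adjusted p = 0.0373, edgeR) lost its call under 7 of 22 alternatives. Without M1 KD replicate 5 it was 0.84 (adjusted p = 0.278), without M1 NS replicate 2 it was 0.97 (adjusted p = 0.0877), and over all alternatives adjusted p ran from 0.0212 to 0.278. Hist1h2ae, the H2A gene on the other side of the promoter window shown above, had 16 and 9 counts in M1 KD, against 23, 7 and 17 in M1 NS, which overlap. Its log2 fold change of -0.30 (SE 0.46, adjusted p = 0.639) did not pass the test, and the difference between the neighbours was not tested.

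The abundant members moved less. Hist1h1c had 1388 and 664 counts in M1 KD, against 1922, 1435 and 972 in M1 NS, or 38.1 and 24.3 CPM against 53.8, 56.8 and 27.9 CPM. The groups overlapped because M1 NS replicate 4 was low, and the log2 fold change of -0.56 (SE 0.27, adjusted p = 0.115) became -0.78 (adjusted p = 0.00496) without that library. Over the alternatives its adjusted p ran from 0.00496 to 0.53. Hist1h2bc had 2678 and 2110 counts in M1 KD, against 2206, 1735 and 1845 in M1 NS. Its CPM ranges did not overlap, with 73.5 and 77.2 in M1 KD above 61.8, 68.7 and 52.9 in M1 NS, but the value of 0.30 (SE 0.20, adjusted p = 0.26) did not pass. In H2B, then, Hist2h2be fell while Hist1h2bc and Hist1h2bg had values above 0, and the summed level of the 18 H2B genes was 78.0 and 80.4 CPM in M1 KD, against 71.2, 76.1 and 62.0 CPM in M1 NS.

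**Figure D2:**
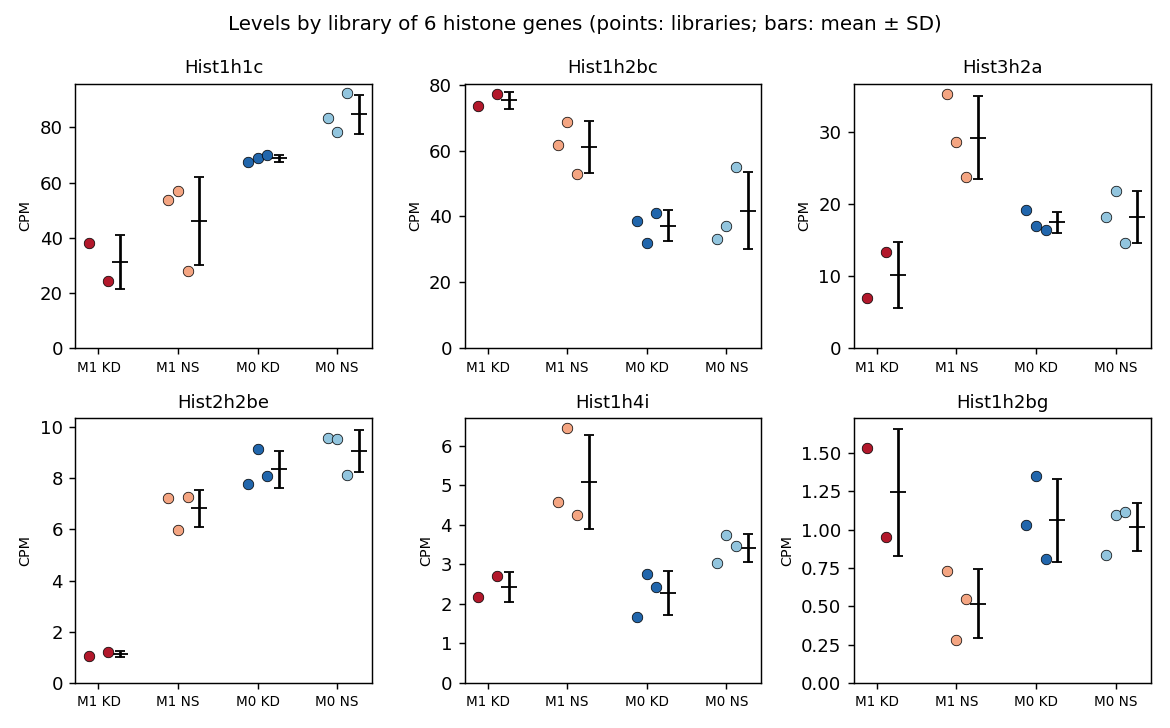
Level in CPM (y axis) of 6 histone genes in each library (points), with the mean and SD of each group beside them (M1 KD n = 2, the other groups n = 3). Hist2h2be lies at 1.04 and 1.21 CPM in M1 KD and at 5.98 CPM or more in all other libraries, and Hist1h2bc at 73.5 and 77.2 CPM in M1 KD, against 52.9 to 68.7 CPM in M1 NS.

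Among the low members, Hist2h3c2 of H3 had 27 and 5 counts in M1 KD, against 30, 29 and 51 in M1 NS (log2 fold change -1.27, SE 0.54, adjusted p = 0.0824). Hist2h4 of H4 had 2 and 0 counts in M1 KD, against 6, 5 and 5 in M1 NS (-2.33, SE 0.90, adjusted p = 0.0598). Neither passed, and each was carried by replicate 6 more than by replicate 5. Others leaned upward: Hist1h2af of H2A had 13 and 0 counts in M1 KD, against 0, 1 and 0 in M1 NS (3.79 on the log2 scale, SE 1.60, adjusted p = 0.0818), and Hist2h2bb of H2B 27 and 0 in M1 KD, against 3, 0 and 1 in M1 NS (3.14, SE 1.37, adjusted p = 0.0914). Neither passed, and both owed their value to replicate 5. Hist1h2be, Hist1h4h and Hist3h2ba, of H2B, H4 and H2B, had log2 fold changes of 0.06, -1.10 and -1.02 with adjusted p-values of 0.932, 0.34 and 0.374. Hist1h2be overlaps the H1 gene Hist1h1e on the same strand, and reads in that stretch cannot be placed with either one. Ranges of the M1 KD and M1 NS libraries did not overlap for 7 of the 16, against 52.4% of all genes.

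M0 KD was compared with M0 NS to see what the same gapmer did in M0 cells. None of the 16 histone genes passed edgeR's test, and 0% of all genes did. At an unadjusted p under 0.05 stood 1 histone gene and 1947 genes in all. DESeq2, limma-voom and limma-trend called none of the histone genes either, and DESeq2 called 184 genes in all, limma-voom and limma-trend 0. The histone median log2 fold change was -0.14 (0.10 without M0 NS replicate 4), against 0.003429 over all genes, and the ranges did not overlap for 6 of 16, against 35.1% of all genes.

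Hist1h4i was the gene with the unadjusted p under 0.05. It had 65, 114 and 117 counts in M0 KD, against 130, 140 and 146 in M0 NS, and 1.67, 2.75 and 2.42 CPM in M0 KD, against 3.03, 3.74 and 3.47 CPM in M0 NS. The groups did not overlap, and the log2 fold change was -0.58 (SE 0.25, adjusted p = 0.367). Hist1h2ae had 19, 19 and 25 counts in M0 KD, against 28, 25 and 41 in M0 NS (-0.64, SE 0.38, adjusted p = 0.46). Hist3h2ba had 4, 11 and 13 counts in M0 KD, against 33, 11 and 14 in M0 NS (-1.11, SE 0.62, adjusted p = 0.444). On the other side, the H2A gene Hist1h2af had 17, 13 and 11 counts in M0 KD, against 7, 0 and 3 in M0 NS (1.97, SE 0.98, adjusted p = 0.409). Hist2h2bb, with 3, 18 and 2 counts in M0 KD against 1, 1 and 1 in M0 NS, owed its 2.74 (SE 1.39, adjusted p = 0.414) to replicate 2. Hist1h1e stood at 0.29 (SE 0.73, adjusted p = 0.878).

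Hist2h2be had 303, 380 and 391 counts in M0 KD, against 411, 357 and 342 in M0 NS, and its log2 fold change was -0.12 (SE 0.15, adjusted p = 0.736). Hist3h2a had 744, 702 and 792 counts in M0 KD, against 784, 817 and 614 in M0 NS, with -0.06 (SE 0.23, adjusted p = 0.924). For both genes the groups overlapped. Hist1h1c had 67.4, 68.9 and 69.8 CPM in M0 KD, against 83.3, 78.5 and 92.3 CPM in M0 NS, without overlap, but its value of -0.30 (SE 0.23, adjusted p = 0.564) did not pass. Hist1h2bc overlapped, at -0.17 (SE 0.18, adjusted p = 0.686). Neutrophil and granulocyte precursor markers summed to less in M0 KD, at 843.6 to 906.7 CPM, against 1495 to 2601 CPM in M0 NS, with 16 of 16 below 0 and none called by edgeR. Their part in the histone values was not tested.

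**Figure D3:**
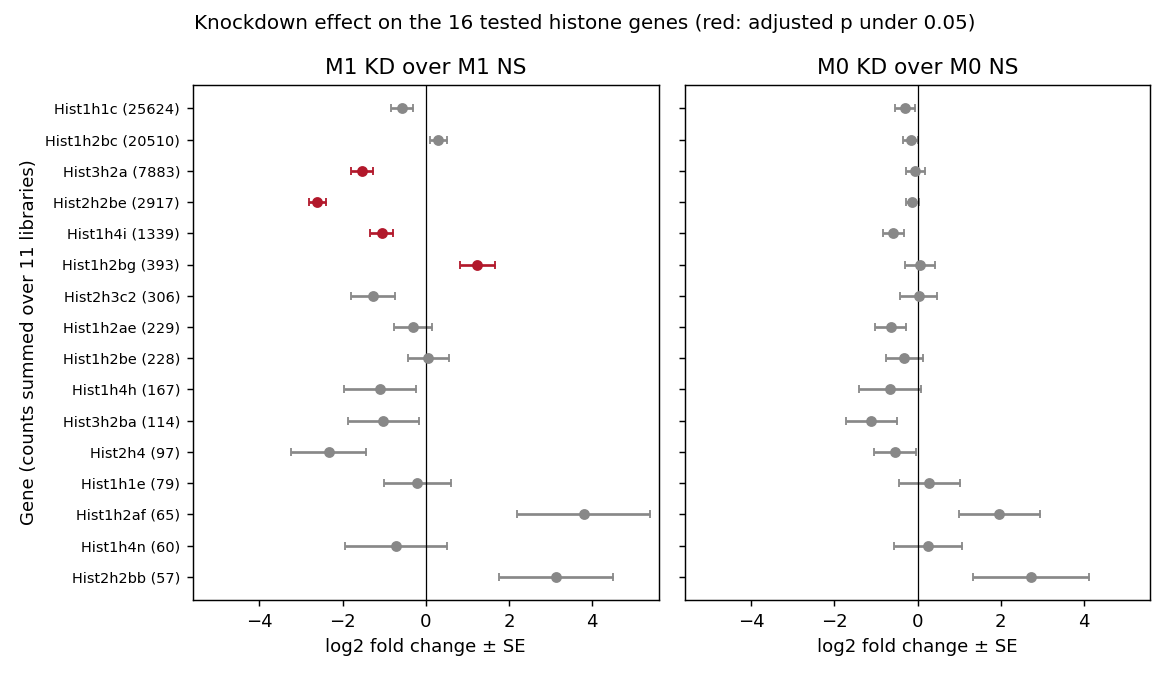
Log2 fold change with its SE (x axis) of the 16 tested histone genes, for M1 KD over M1 NS (left) and M0 KD over M0 NS (right), with genes ordered by their counts over the 11 libraries (in brackets) and calls at adjusted p under 0.05 in red. On the left Hist2h2be, Hist3h2a and Hist1h4i lie below 0 and Hist1h2bg above it as calls, on the right there is no call, and the error bars widen toward the genes with few counts.

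The effects of the gapmer in M1 and M0 cells were set against each other in the same fit, as the M1 effect minus the M0 effect. Any difference tied to the label numbers of M1 KD enters this contrast too and cannot be told apart from it. The effect differed for 2 of the 16 histone genes, both more negative in M1, against 27.3% of all genes (13.1% higher, 14.2% lower). For Hist2h2be the difference was -2.48 on the log2 scale (SE 0.26, adjusted p = 0.000114, edgeR), and for Hist3h2a it was -1.47 (SE 0.35, adjusted p = 0.00976). Both calls held under the 21 alternatives run, with adjusted p-values of at most 0.000994 and 0.0376. Hist1h4i, whose effect was called in M1 and not in M0, had a difference of -0.48 (SE 0.37, adjusted p = 0.362), so that a difference between its effects was not shown. Upper-quartile factors gave 2474 higher and 1705 lower over all genes in this test, against 1965 and 2130 with TMM factors, and 2 histone genes lower and 0 higher under each of the 4 scalings. Hist1h2bg stood at 1.18 (SE 0.56, adjusted p = 0.138). The median over the 16 was -0.36, against -0.02 over all genes, and 0.09 without M1 KD replicate 6.

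M1 NS was compared with M0 NS to describe the states themselves, and M1 NS is also the group against which M1 KD was set, so these comparisons share libraries. Of 16 histone genes 2 rose in M1 NS, Hist3h2a and Hist1h2bc, and 2 fell, Hist1h1c and Hist2h2be, against 55.5% of all genes called (26.9% higher, 28.6% lower). The split depends on the scaling: with library size alone 0 histone genes were higher and 5 lower, and with upper-quartile factors 0 were higher and 3 lower. Scaling by library size alone put the median of all genes at -0.42, against -0.04 with TMM factors, and called 2348 genes higher and 6447 lower, against 4044 and 4294. Under it Hist3h2a was 0.29 (adjusted p = 0.261) and Hist1h2bc 0.15 (adjusted p = 0.511), both still above that median. The histone median was 0.03 with TMM factors, or -0.49 over 15 of the genes without M1 NS replicate 1, and ranges did not overlap for 8 of 16, against 61.4% of all genes. Neutrophil and granulocyte precursor markers, 16 genes, summed to 267.2 to 343.6 CPM in M1 NS, against 1495 to 2601 CPM in M0 NS, with 15 of 16 called lower, and B cell markers to 0.5734 to 1.065 CPM in M1 NS, against 4.889 to 5.64 CPM in M0 NS. Their part in the histone values was not tested.

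Hist1h1c, the H1 gene with the most counts, had 1922, 1435 and 972 counts in M1 NS, against 3576, 2937 and 3879 in M0 NS. The levels were 46.2 ± 15.9 CPM in M1 NS and 84.7 ± 7.03 CPM in M0 NS (SD, n = 3 each), without overlap. Its log2 fold change of -0.88 (SE 0.23, adjusted p = 0.00677, edgeR) kept its call under all 23 alternatives. Hist2h2be had 7.23, 5.98 and 7.25 CPM in M1 NS, against 9.57, 9.54 and 8.14 CPM in M0 NS, without overlap. Its value of -0.41 on the log2 scale (SE 0.16, adjusted p = 0.0401) lost its call under 14 of 23 alternatives, where adjusted p ran from 0.000977 to 0.134.

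Hist3h2a had 1259, 722 and 831 counts in M1 NS, against 784, 817 and 614 in M0 NS. Scaled, these were 35.3, 28.6 and 23.8 CPM in M1 NS and 18.3, 21.8 and 14.6 CPM in M0 NS, a difference of 0.68 on the log2 scale (SE 0.23, adjusted p = 0.0237). Without M0 NS replicate 1, M0 NS replicate 4 or M1 NS replicate 1 it was no longer called, at adjusted p-values of 0.0607, 0.0942 and 0.104. Hist1h2bc had 61.8, 68.7 and 52.9 CPM in M1 NS, against 33.1, 37.2 and 55.0 CPM in M0 NS, where replicate 4 reached into the M1 range. Its log2 fold change of 0.55 (SE 0.18, adjusted p = 0.0218) lost its call under 7 of 23 alternatives. Hist1h4i had 4.57, 6.45 and 4.24 CPM in M1 NS and 3.03, 3.74 and 3.47 CPM in M0 NS, and Hist1h2bg 0.728, 0.277 and 0.545 CPM in M1 NS and 0.838, 1.10 and 1.12 CPM in M0 NS. Neither overlapped, and neither passed (0.57, adjusted p = 0.0628, and -0.95, adjusted p = 0.0552).

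Under the gapmer against MERRICAL, M1 KD was compared with M0 KD, groups that also share no label number. Of 16 histone genes 1 rose and 4 fell, against 58.3% of all genes (26.9% higher, 31.4% lower). Hist1h2bc was the one that rose, with 73.5 and 77.2 CPM in M1 KD, against 38.7, 31.9 and 41.1 CPM in M0 KD (1.02 on the log2 scale, SE 0.20, adjusted p = 0.00087, edgeR). Hist2h2be had 1.04 and 1.21 CPM in M1 KD, against 7.79, 9.16 and 8.10 CPM in M0 KD (-2.89, SE 0.21, adjusted p = 3.49e-07), and Hist1h1c 38.1 and 24.3 CPM in M1 KD, against 67.4, 68.9 and 69.8 CPM in M0 KD (-1.14, SE 0.27, adjusted p = 0.00309). These 3 calls held under all 22 alternatives. The histone median was -0.40, against -0.11 over all genes, and 0.03 without M1 KD replicate 6, and ranges did not overlap for 7 of 16, against 74.9% of all genes.

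Hist2h4 and Hist3h2a also fell between M1 KD and M0 KD. Hist2h4 had 2 and 0 counts in M1 KD, against 14, 6 and 13 in M0 KD (-2.94 on the log2 scale, SE 0.85, adjusted p = 0.0104, edgeR), a call lost under 2 of 21 alternatives, without M1 KD replicate 6 (adjusted p = 0.0701) and at the threshold of 0.01. Hist3h2a had 6.92 and 13.4 CPM in M1 KD, against 19.1, 16.9 and 16.4 CPM in M0 KD (-0.79, SE 0.27, adjusted p = 0.0227), a call lost under 4 of 22 alternatives. These were the fits without M1 KD replicate 5 (-0.39, adjusted p = 0.231), without M0 KD replicate 1 (-0.72, adjusted p = 0.0613) and of only the groups compared (-0.70, adjusted p = 0.06), and the threshold of 0.01. Over their alternatives the adjusted p ran from 0.00326 to 0.0701 for Hist2h4 and from 0.00039 to 0.231 for Hist3h2a. The M1 KD value of Hist3h2a was thus below the M0 KD level, while M1 NS was above the M0 NS level. Scaling by library size alone put the median of all genes at -0.59 here, against -0.11 with TMM factors, with 2376 genes higher and 7077 lower against 4040 and 4715, and 1 histone gene was still higher and 4 lower.

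The low members were summed, since single ones were below the filter. The 47 genes below the filter had 321 of 187816224 counts in the 5 M1 libraries and 789 of 218909199 in the 6 M0 libraries. As a share of library counts they took 0.000115% to 0.000243% in M1 libraries and 0.000262% to 0.00051% in M0 libraries, without overlap. On that scale the median of all tested genes also lay lower in M1. It was -0.42 for M1 NS against M0 NS and -0.59 for M1 KD against M0 KD (log2, library size alone). With TMM scaling the sums were 2.22 and 1.39 CPM in M1 KD, 1.88, 1.62 and 2.70 CPM in M1 NS, 4.22, 2.56 and 2.20 CPM in M0 KD, and 3.07, 2.56 and 4.40 CPM in M0 NS. M1 KD replicate 5 and M1 NS replicate 4 then reached into the M0 range. Within a state the gapmer groups overlapped. Neutrophil and granulocyte precursor markers moved the same way, at 230.8 to 343.6 CPM in M1 libraries, against 843.6 to 2601 CPM in M0 libraries, and their part in these sums was not tested.

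Several single low genes were seen in M0 libraries alone. Hist1h4j (H4) had 0 counts in the M1 libraries and 25 in the M0 libraries, Hist1h2ak (H2A) and Hist1h3i (H3) 0 and 18 each, Hist1h2bk (H2B) 0 and 14, Hist1h2bm (H2B) 0 and 12, Hist1h3h (H3) 0 and 9, and Hist1h2aj (H2A, typed as a pseudogene) 0 and 2. These 7 were at 0 in every M1 library, and 1, the testis H1 gene Hist1h1t, in every M0 library (2 counts in M1 libraries). They were picked out by their zeros, so this is a description. The share of all low genes with such zeros was not worked out, and the M0 side has 1 library more. No histone pattern can therefore be read from these counts. Others had no such side: Hist1h2ac (H2A) had 37 counts in M1 and 37 in M0 libraries, and Hist1h4a (H4) 18 in M1 and 11 in M0 libraries. With all but the 5 highest genes summed, 64 members had 5.87 ± 2.87 CPM in M1 KD (SD, n = 2), 6.33 ± 0.927 in M1 NS, 7.21 ± 0.944 in M0 KD and 7.93 ± 1.80 in M0 NS (SD, n = 3 each). The sums of the groups overlapped, and the M1 KD libraries were far apart, with 7.90 CPM in replicate 5 and 3.84 CPM in replicate 6.

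**Figure D4:**
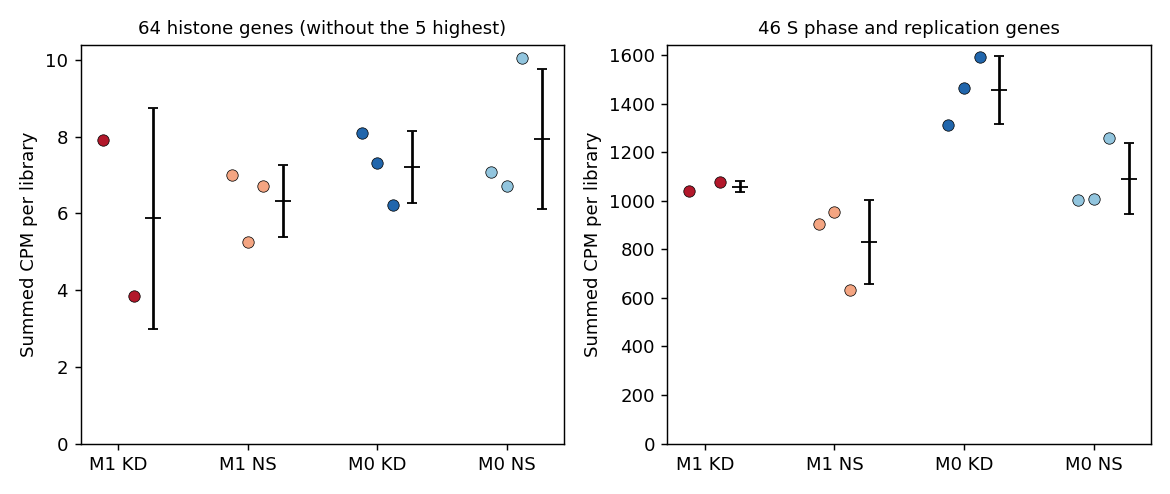
Summed CPM per library (y axes) of the 64 histone genes other than the 5 highest (left) and of 46 S phase and replication genes (right), with points for libraries and the mean and SD of each group beside them. The histone sums of the groups overlap, with M1 KD at 3.84 and 7.90 CPM, and the S phase sums are lowest in M1 NS, at 631.7 to 955.7 CPM, and highest in M0 KD, at 1311 to 1591 CPM.

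Genes of S phase and DNA replication, the period in which histone mRNA is normally made, gave the setting. Their summed level was 1041 and 1076 CPM in M1 KD, 631.7 to 955.7 CPM in M1 NS, 1311 to 1591 CPM in M0 KD and 1005 to 1260 CPM in M0 NS. Abundant genes weigh most in these sums: in M1 KD Pcna had 12926 and 8795 counts and Ccna2 17 and 20. Between M1 KD and M0 KD 8 of 46 rose and 26 fell (median -1.01), against 26.9% of all genes higher and 31.4% lower. Between M1 NS and M0 NS 6 of 46 rose and 27 fell, with a median of -0.90 (1 and 35 with library size alone). Of all genes 26.9% were called higher and 28.6% lower there. Ccna2, the S phase cyclin A2, was at -4.26 and Rrm2, a subunit of ribonucleotide reductase, at -3.77, whereas Ccne1, cyclin E1, was at 3.05. Between M1 KD and M1 NS 11 rose and 1 fell (median 0.30; 17 and 1 with upper-quartile factors), against 17.6% of all genes higher and 19.2% lower, with Rfc2 at 1.35 and Rfc3 at 1.30, subunits of the clamp loader, among the risers, and the thymidine kinase gene Tk1 at -1.55 as the one that fell. In M0 none was called by edgeR and the median was 0.42. Of 20 mitosis genes 12 rose and 0 fell between M1 KD and M1 NS (median 0.98), and 1 rose and 19 fell between M1 NS and M0 NS (median -3.27). Between M0 KD and M0 NS 20 of 20 were above 0 (median 0.67), with none called by edgeR. The M1 effect minus the M0 effect was called higher for 1 mitosis gene and lower for 2, against 13.1% and 14.2% of all genes. The medians of the 16 histone genes in the same knockdown comparisons were -0.64 in M1 and -0.14 in M0, and a difference between the lists was not tested.

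Factors that make and destroy the 3′ end of histone mRNA were read from a list of 27 genes. Between M1 KD and M1 NS 1 rose and 11 fell, against 17.6% of all genes higher and 19.2% lower, with a median of -0.33, or 3 and 6 with upper-quartile factors. Ncbp2, a subunit of the nuclear cap-binding complex, was at 10.6 ± 0.327 CPM in M1 KD (SD, n = 2) and 38.2 ± 7.93 CPM in M1 NS (SD, n = 3), which is -1.85 on the log2 scale (SE 0.17, adjusted p = 2.02e-05, edgeR). Upf1, a helicase of mRNA decay that acts on histone mRNA, was at -1.08, Cpsf2, a subunit of the cleavage complex, at -0.70, and Xrn1, the 5′ to 3′ exonuclease, at -1.01. Zfp473, a zinc finger protein that binds the U7 complex in human cells, was the one that rose, at 2.05, with 0.855 ± 0.227 CPM in M1 KD (SD, n = 2) and 0.201 ± 0.0841 CPM in M1 NS (SD, n = 3). Slbp itself, the stem-loop binding protein, had 45.3 ± 2.96 CPM in M1 KD (SD, n = 2) and 38.8 ± 1.99 CPM in M1 NS (SD, n = 3), a difference of 0.22 on the log2 scale (SE 0.11, adjusted p = 0.147).

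Between M1 NS and M0 NS 11 of the 27 rose and 6 fell, against 26.9% of all genes higher and 28.6% lower. The counts were 1 and 9 with library size alone, so that the side of this list rests on the scaling. Slbp rose by 0.47 on the log2 scale (SE 0.10, adjusted p = 0.00189, edgeR), at 38.8 ± 1.99 CPM in M1 NS and 28.0 ± 0.598 CPM in M0 NS (SD, n = 3 each), and was not called with library size alone. Lsm11, a U7-specific protein, fell by 0.84 on the log2 scale and Zfp473 by 2.07. None of the 27 was called by edgeR in M0, with a median of -0.09.

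Of 12 genes of the general polyadenylation machinery 1 rose and 7 fell between M1 KD and M1 NS, against 17.6% of all genes higher and 19.2% lower, with a median of -0.66. Pcf11, a termination factor, was at -1.02, Papola, a poly(A) polymerase, at -1.12 and Pabpn1, the nuclear poly(A) binding protein, at -1.35, while Papd4, a cytoplasmic poly(A) polymerase, was at 0.52. The counts were 1 and 7 under each of the 4 scalings. Between M1 NS and M0 NS 4 rose and 0 fell, where 26.9% of all genes were higher and 28.6% lower. With library size alone the counts were 0 and 1, and in M0 none was called by edgeR.

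Factors of histone gene transcription were called about as often as genes in general. Of 15 genes 2 rose and 5 fell between M1 KD and M1 NS, or 3 and 3 with upper-quartile factors, against 36.8% of all genes called. Hinfp, which activates H4 genes, had 23.3 ± 0.884 CPM in M1 KD (SD, n = 2) and 37.9 ± 4.94 CPM in M1 NS (SD, n = 3), or -0.70 on the log2 scale (SE 0.14, adjusted p = 0.0023, edgeR). Nfyb and Nfya, subunits of NF-Y that bind the CCAAT box, were at -0.85 and -0.63. The cyclin E genes Ccne2 and Ccne1, whose kinase activates histone transcription at the start of S phase, rose by 1.55 and 1.02. Between M1 NS and M0 NS 4 rose and 3 fell, against 26.9% of all genes higher and 28.6% lower. Hinfp was at 1.31 and Nfyb at 0.68, and Cdk2 at -1.02, E2f1 at -0.69 and Ccne2 at -1.61. With library size alone the counts were 2 and 5.

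Genes listed as replication-independent histone variants, most of which give ordinary polyadenylated mRNA, were in sum far more abundant than the members. The 19 genes of the list, 12 of them tested, summed to 1580 and 2105 CPM in M1 KD, 1911 to 2402 CPM in M1 NS, 1337 to 1488 CPM in M0 KD and 1456 to 1510 CPM in M0 NS. H3f3b, which encodes H3.3, had 1434 ± 203 CPM in M1 NS and 586 ± 73.5 CPM in M0 NS (SD, n = 3 each; 1.29 on the log2 scale, SE 0.19, adjusted p = 0.000112, edgeR). It was the 1 variant that rose between M1 NS and M0 NS, while 6 fell, against 26.9% of all genes higher and 28.6% lower. Among those that fell were H2afz and H2afv, both of the H2A.Z kind, at -0.93 and -1.55, and Cenpa, the centromeric H3, at -4.30. Between M1 KD and M1 NS 3 rose, Cenpa at 2.27, H2afy2 (a macroH2A) at 1.06 and H2afv at 0.51, and 2 fell, H1f0 (the linker histone H1.0 of non-dividing cells) at -1.52 and H2afj (an H2A variant) at -0.93. In M0 none was called by edgeR. Histone chaperones, which carry histones to DNA, gave 2 higher and 6 lower of 21 between M1 KD and M1 NS, or 6 and 6 with upper-quartile factors, a share near the 36.8% of all genes called. Chaf1b, a subunit of the assembly factor CAF-1, rose by 1.22 on the log2 scale and Nasp, which holds free H3 and H4, by 0.67, while Supt16, a subunit of FACT, fell by 0.98 and Hjurp, which loads Cenpa, by 1.63. Between M1 NS and M0 NS 4 chaperones rose and 4 fell, against 26.9% of all genes higher and 28.6% lower. Hat1, a histone acetyltransferase of new H4, was at 2.76, the H3.3 chaperone Daxx at 2.27, and Asf1b, an H3 and H4 chaperone, at -1.61. The counts were 3 and 14 with library size alone.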

How the data were processed

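The submitters' processing notes name GRCm38 and, as tools, STAR 2.5.2b, Trimmomatic 0.36, featureCounts and Subread 1.5.2. The authors deposited raw counts for 42375 named genes in 11 libraries (1 further blank name, at most 0.000305% of a library, was left out) and a normalized signal. The deposited signal was, as checked, the count divided by 1 constant per library and was used as an alternative. Library selection, strand setting, annotation and treatment of multi-mapping reads were not given in the sources used here. Ends, positions and overlaps came from GENCODE M21, promoters and gene names from RefSeq (all 69 members matched), and neither may be the annotation the authors used.

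Genes were kept by filterByExpr (minimum count 10, minimum total 15; 15024 genes), scaled by TMM factors and fitted with edgeR 4.0.16 in R 4.3.3 (glmQLFit with the robust option, glmQLFTest) over all 11 libraries, 1 coefficient per group, with Benjamini-Hochberg adjustment over all genes tested. CPM are TMM-scaled. Each SE is that of the log2 fold change. In simulated data for M1 KD against M1 NS, 72 of 100 genes changed 2-fold and 100 of 100 changed 4-fold were recovered, with 7 false calls. The simulation held 15024 genes, and recovery was not worked out for counts as low as those of most tested histone genes. Alternatives were DESeq2 1.42.0, limma 3.58.1 (voom, and trend on log2 of the signal plus 1), other scalings, filters and thresholds, a fit of only the compared groups, a block for the label number, and each library left out.

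The members, gene lists and tests were chosen with earlier results of these data known. Named with values were the 12 tested members with the highest mean CPM, the called members of each comparison (where none, the 3 of each direction that had the lowest p), the members at the edge of the filter and up to 4 called genes of each direction per list; Rn7sk, Trim17, Slbp and the members at 0 in a state were added after their values were seen.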

Additional observations from a re-analysis of the deposited data

Results flagged for a closer look

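The effect of the gapmer against MERRICAL differed between M1 and M0 cells for 2 of the 16 tested histone genes, by a test of the difference itself in the edgeR fit. M1 KD shares no label number with the other groups, so a difference tied to the numbers cannot be told apart from this effect. For the H2B gene Hist2h2be the M1 effect minus the M0 effect was -2.484 on the log2 scale (SE 0.255, adjusted p = 0.000114), with 1.12 ± 0.116 CPM in M1 KD (SD, n = 2), 6.82 ± 0.729 CPM in M1 NS, 8.35 ± 0.719 CPM in M0 KD and 9.08 ± 0.817 CPM in M0 NS (SD, n = 3 each). For the H2A gene Hist3h2a it was -1.473 (SE 0.352, adjusted p = 0.00976), with 10.2 ± 4.57 CPM in M1 KD (SD, n = 2), 29.2 ± 5.75 CPM in M1 NS, 17.5 ± 1.44 CPM in M0 KD and 18.2 ± 3.61 CPM in M0 NS (SD, n = 3 each).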

How the results depend on the processing

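No called value changed sign under any alternative run. Between M1 KD and M1 NS, 4 histone genes were called, but 7 without a filter on low counts (63 tested), 2 at an adjusted p under 0.01 and 2 with only the groups compared. Between M1 NS and M0 NS 4 were called, but 1 at an adjusted p under 0.01 and 7 with DESeq2, which tested 63 members (edgeR without a filter tested 63 and called 6), and between M1 KD and M0 KD 5 were called, but 3 at an adjusted p under 0.01. With 1 library left out, the counts ran from 3 to 6 for M1 KD against M1 NS, 0 to 0 for M0 KD against M0 NS, 1 to 5 for M1 NS against M0 NS, 4 to 6 for M1 KD against M0 KD and 2 to 3 for the difference of effects. The low end for M1 NS against M0 NS came without M0 NS replicate 1, and 2 were left without replicate 2 of M0 NS and without replicate 1 or 2 of M1 NS. Why these calls were lost was not tested. Without M1 KD replicate 5 or 6 the filter let 24 or 25 members into the count. The median between M1 KD and M1 NS, taken over the 16 genes of the report that stayed in the fit, ran from -1.41 to -0.20 with 1 library left out. Where a library was left out of M1 KD, the lone other one was assumed to vary like the other groups. Low counts limit the 47 genes below the filter, which the filter leaves out of the test.

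Whether the label numbers pair the libraries was not settled. Same-numbered deviations correlated at -0.115 to 0.135 over the groups sharing numbers, and different-numbered ones at -0.142 to 0.173. Between M0 KD and M0 NS the same-numbered values were 0.135, 0.0221 and 0.124, against -0.133 to 0.0323 for different numbers. With the number as a replicate block over 9 libraries, M1 NS against M0 NS gave 5 histone calls and M0 KD against M0 NS gave 0. Hist2h2be was then not called between M1 NS and M0 NS (adjusted p = 0.0673), and Hist1h4i and Hist2h3c2 were (adjusted p = 0.0322 and 0.0366). No paired analysis was possible for M1 KD because it shares no number with the other groups.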
